A study of Mus musculus with 2 samples.

Results

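The regions described here lie near genes of the splicing machinery and of related RNA-binding proteins, and STARR-seq was used to read their activity in mouse T helper 1 (Th1) cells after activation. In STARR-seq, genomic fragments are carried in a reporter on an episome, and a fragment that raises transcription increases its own RNA, so that RNA output is set against the DNA input. The authors' deposited table lists regions of the mm10 genome with a signed effect, a p-value and an adjusted p under 0.01, and a positive effect was read here as RNA output above input. A region was taken when the nearest start of a protein-coding gene (GENCODE M21 basic set) lay within 100 kb of its centre and that gene's symbol began with Srsf, Tra2, Hnrn, Sf3, U2af, Snrp, Prpf, Celf, or with Rbm or Lsm and a digit. This gave 113 regions of 14973 on the main chromosomes (all listed regions, the 113 included), given to 84 genes. The choice rests on gene symbols and distance, and every region in the table had already passed the adjusted p.

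The cells were primary activated Th1 cells of C57BL/6NJ mice, transiently transfected with the reporter library (30 ug of nucleic acid, fragments of 200 to 400 bp). Per the labels, interleukin-2 and interleukin-12 p70 were given for 4 days (10 ng/mL each, a dose stated for replicate 1) together with an antibody against interleukin-4 (2 ug/mL, stated for replicate 2). An antibody against CD3e (0.25 ug/mL, both replicates) and one against CD28 (1 ug/mL, stated for replicate 2) were given for 3 days. Both output libraries carry the same donor identifier, form 1 group with no control group, and were combined by the authors into 1 table, so each region has 1 value and no spread between libraries, and depth is unknown. Sex and age of the mice were not among the labels used here. An episomal reporter reads a fragment outside its native chromatin, and a region's nearest gene is an assignment by distance. The table holds no expression, so that the Th1 label could not be checked by Tbx21, Ifng, Il12rb2, Stat4 or Cd3e.

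Splicing removes introns from precursor mRNA. The 5' splice site is bound by the U1 snRNP, and the 3' splice site by U2AF, which is followed by the U2 snRNP with its SF3A and SF3B complexes. The U4/U6.U5 tri-snRNP, to which several PRPF proteins belong, then joins, and the PRP19 complex helps to activate the spliceosome. Sm proteins, encoded by part of the Snrp genes, and LSm proteins form rings on the small nuclear RNAs. SR proteins mostly favour exon inclusion, hnRNP proteins often oppose it, and CELF and many RBM proteins adjust the choice in particular tissues. In T cells, hnRNPLL regulates the alternative splicing of Ptprc, which encodes CD45, and many SR and hnRNP genes limit their own level through exons whose inclusion exposes the mRNA to decay.

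Sequences are shown for regions at both ends of the range of effects. The first 4 are promoter stretches upstream of the nearest annotated protein-coding start, free of annotated exons. The Srsf7 stretch lay within the gene, as its region was centred 242 bp downstream of the gene's most upstream protein-coding start. Srsf7 and Rbm5 lay in strongly positive regions, and Hnrnpa0 and Prpf40b in the most negative. Each is printed 5' to 3' on the gene's strand from GRCm38 (mm10). Capitals mark matches, on either strand, to consensus sequences from a list of 15. Of that list, the NF-kB, TATA box and 5' splice site sequences were not marked. The Srsf7 stretch held 2 SP/KLF boxes (GGGCGG) and 74.5% GC. The Rbm5 stretch held NFY (CCAATNA), RUNX (TGTGGT) and STAT (TTCNNNGAA) matches and 60% GC. Hnrnpa0 and Prpf40b held 80% and 82.5% GC and 2 and 6 SP/KLF boxes, and Prpf40b also held an E-box (CACGTG).
Srsf7, chr17:80206858-80207057, minus strand: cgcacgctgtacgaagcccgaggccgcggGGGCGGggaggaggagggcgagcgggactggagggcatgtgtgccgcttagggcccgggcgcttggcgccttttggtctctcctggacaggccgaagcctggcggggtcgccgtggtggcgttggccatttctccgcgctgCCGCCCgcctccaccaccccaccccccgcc
Rbm5, chr9:107770997-107771196, minus strand: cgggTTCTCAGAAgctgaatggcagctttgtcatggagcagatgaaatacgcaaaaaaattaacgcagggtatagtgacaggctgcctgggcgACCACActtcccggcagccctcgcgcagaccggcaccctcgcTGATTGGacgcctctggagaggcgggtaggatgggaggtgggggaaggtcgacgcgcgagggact
Hnrnpa0, chr13:58128557-58128756, minus strand: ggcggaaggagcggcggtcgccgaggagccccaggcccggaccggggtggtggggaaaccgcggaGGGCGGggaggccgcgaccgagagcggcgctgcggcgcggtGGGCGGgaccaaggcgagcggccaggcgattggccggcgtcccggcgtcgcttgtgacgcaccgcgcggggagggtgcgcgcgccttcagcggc
Prpf40b, chr15:99294887-99295086, plus strand: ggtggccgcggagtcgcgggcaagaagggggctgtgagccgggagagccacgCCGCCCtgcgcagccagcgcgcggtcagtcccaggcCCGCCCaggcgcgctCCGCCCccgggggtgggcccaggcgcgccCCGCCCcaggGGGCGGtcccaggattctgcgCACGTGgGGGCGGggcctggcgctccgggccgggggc

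Outside promoters, the stretches below show regions of both directions. Hnrnpll and Hnrnpc (in an intron of the gene) had negative effects, and Tra2a and Hnrnpa3 (200 bases of its region) had positive effects. The Hnrnpll region held a RUNX match and an AP-1 match (TGANTCA), and the Hnrnpa3 stretch 2 RUNX matches. None of the 15 consensus sequences was found in the Hnrnpc or Tra2a stretches. The Hnrnpll and Hnrnpc regions shown are 50 bp wide, below the 200 to 400 bp of the reporter fragments. Sequence outside listed regions was not searched. A further negative Hnrnpc region close by (chr14:52098526-52098800, not shown) held 1 AP-1 match.
Hnrnpll, chr17:80092651-80092700, minus strand: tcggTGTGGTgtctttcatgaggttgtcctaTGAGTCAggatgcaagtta
Hnrnpc, chr14:52098926-52098975, minus strand: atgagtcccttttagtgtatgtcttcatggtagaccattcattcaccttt
Hnrnpc, chr14:52098851-52098900, minus strand: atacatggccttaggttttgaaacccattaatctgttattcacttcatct
Tra2a, chr6:49269276-49269525, minus strand: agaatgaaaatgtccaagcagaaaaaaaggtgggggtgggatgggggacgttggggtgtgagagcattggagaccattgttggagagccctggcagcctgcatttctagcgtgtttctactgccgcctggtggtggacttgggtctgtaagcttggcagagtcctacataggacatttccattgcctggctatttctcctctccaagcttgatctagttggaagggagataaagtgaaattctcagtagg
Hnrnpa3, chr2:75638226-75638425, plus strand: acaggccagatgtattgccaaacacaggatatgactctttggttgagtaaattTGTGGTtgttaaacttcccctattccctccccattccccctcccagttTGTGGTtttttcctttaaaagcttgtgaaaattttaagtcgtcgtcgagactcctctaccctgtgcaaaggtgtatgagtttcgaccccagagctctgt

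Most regions near splicing genes were positive, in the same proportion as in the whole table. Of the 113 regions, 90 were positive and 23 negative, or 79.6% positive (95% Wilson interval 71.3% to 86.0%), against 80.7% of all listed regions. The median effect was 0.758, against 0.735 over all listed regions, and the range ran from -2.16 to 4.16. An effect of 1 or more was found in 23 regions (20.4%), near the table's 22.8%, and one of -1 or less in 7 regions (6.19%), against 11.2%; neither difference was tested. The listing itself covers about 13.1% of the tested regions implied by the deposited p-values (114722 for 82.2% of the regions). A deposited adjusted p under 0.001 was reached by 69 of the 113 regions (61.1%), against 60.6% of all listed regions. Intervals on shares cover counting error over regions only, and regions near 1 gene are not independent.

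A larger share of splicing genes than of all protein-coding genes had a listed region. Of the 128 genes that meet the naming rule, 84 (65.6%) were the nearest gene of a region, against 9394 of 21827 protein-coding genes (43.0%). General transcription machinery genes (Gtf, Taf, Polr and Med subunits) reached 67.3%, and translation factor and tRNA synthetase genes 67.1%. Among 74 other splicing genes outside the rule, such as helicases, kinases and PTB proteins, 63.5% had a region. The 4 gene groups thus had shares close to each other and above that of all protein-coding genes; the differences were not tested. The 44 rule genes without a region are 17 Rbm genes, 6 Prpf genes (Prpf4, Prpf6, Prpf18, Prpf31, Prpf38a and Prpf39), Lsm2, Lsm3, Lsm5, Lsm7, Sf3a3, Sf3b3, Sf3b4, Sf3b6, Snrpb2, Snrpf, Snrpn, Celf3, Celf4, and the SR, hnRNP and U2AF genes named below. Tested but unlisted regions were not used here.

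The 2 locations differed in direction. Promoter regions had their centre within 1000 bp of an annotated start of any gene. Among the 76 promoter regions, called splicing promoters below, 8 had the start of a non-coding or other gene nearer than that of their gene. These were given to Hnrnpa3, Hnrnpl, Lsm14a (the region at 0.496), Prpf4b (at 0.673), Rbm19, Rbm47, Srsf3 and U2af2. Of the 76 promoter regions, 65 were positive and 11 negative (85.5%, interval 75.9% to 91.7%), against 75.1% of all listed promoter regions. Of the 37 distal regions, 25 were positive and 12 negative (67.6%, interval 51.5% to 80.4%), against 86.9% of all listed distal regions. The positive share of splicing genes was thus lower in distal than in promoter regions, although the intervals overlap, and in the whole table it was lower in promoters. Among regions with an absolute effect of at least 1 the order turned for the splicing genes, with 80.0% of distal and 75% of promoter regions positive. With 1 region per gene the shares were 80.0% and 84.4%. Median effects were 0.800 in promoter and 0.644 in distal regions, against 0.723 and 0.751 over all listed regions.

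**Figure D1:**
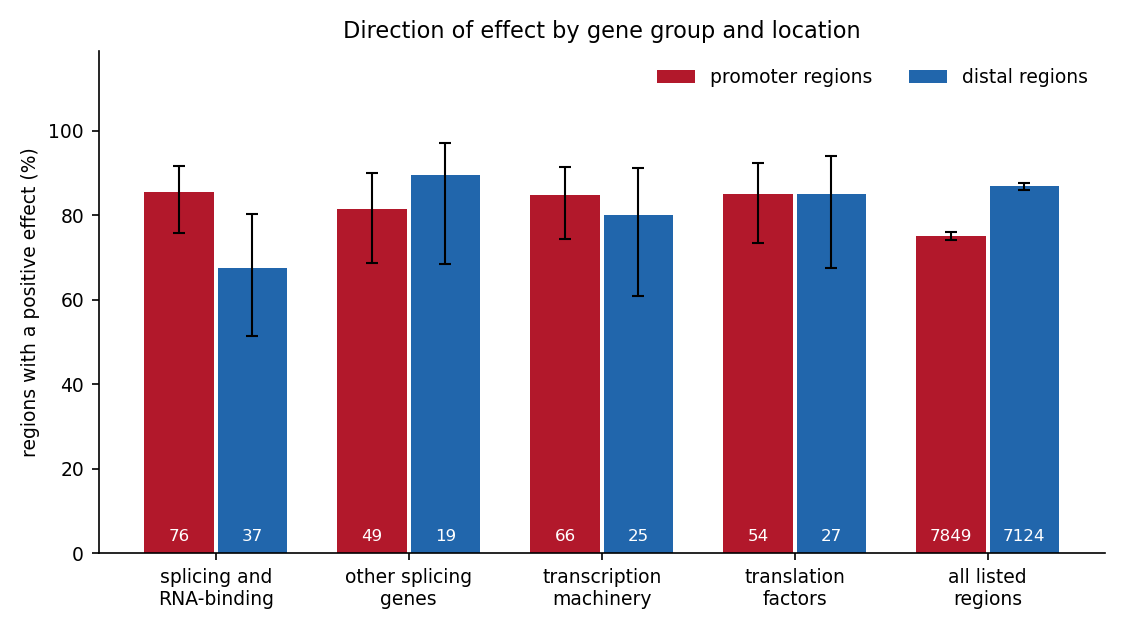
Percent of listed regions with a positive effect (y axis) in promoter regions (red) and distal regions (blue) for 4 gene groups and for all listed regions, with 95% Wilson intervals as bars and the number of regions at the foot of each column. The splicing and RNA-binding genes are the lowest distal column at 67.6%, and their interval (51.5% to 80.4%) overlaps those of the other 3 gene groups.

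In the other gene groups the distal share was higher, though each held few distal regions. Distal regions were positive in 20 of 25 for transcription machinery genes (80.0%), 23 of 27 for translation genes (85.2%) and 17 of 19 for the other splicing genes (89.5%). All 3 intervals overlapped that of the splicing genes, and the differences between these shares were not tested. Promoter shares were 84.8%, 85.2% and 81.6% in those groups, close to the 85.5% of the splicing genes. For the other splicing genes, 57 regions were positive and 11 negative in all, with a median effect of 0.764.

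The 12 negative distal regions were given to 9 genes, and hnRNP genes held 7 of them, 3 of these centred in introns of Hnrnpc. Introns held 9 positive and 7 negative distal regions, against 84.1% positive for all distal intronic regions. Between genes, 13 distal regions were positive and 4 negative, against 89.6% positive.

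Base composition went with direction in both locations. Among promoters, 25 of 26 regions with 50% to 60% GC were positive, against 96.7% of all such regions, and 26 of 28 with 60% to 65% GC, against 90.6%. With 65% to 70% GC, 11 of 14 were positive, against 58.8%, and at 70% GC or more 3 of 8, against 15.9%. The positive share of splicing promoters thus fell with GC as in the whole table, and in the GC-rich classes it stood above the table's share, with 8 of the 11 negative promoters at 65% GC or more. Median GC was equal at 62.4% in both sets of promoters. The correlation between effect and GC over promoter regions was r = -0.40 and rho = -0.23 (n = 76), against -0.53 and -0.44 over all listed promoters, as a description across regions that share both libraries.

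Among distal regions, the AT-rich classes held nearly all negative values. Under 50% GC, 10 of 20 distal regions were positive, against 77.7% of all such regions. Under 40% GC the count was 2 of 6, against 44.1%, and with 40% to 50% GC it was 8 of 14, against 82.4%. All 13 distal regions with 50% to 60% GC were positive, against 98.0%. The remaining 2 negative distal regions had over 70% GC. Across distal regions the correlation of effect with GC was near 0 (r = 0.08, rho = 0.15, n = 37), against 0.07 and 0.04 over all.

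**Figure D2:**
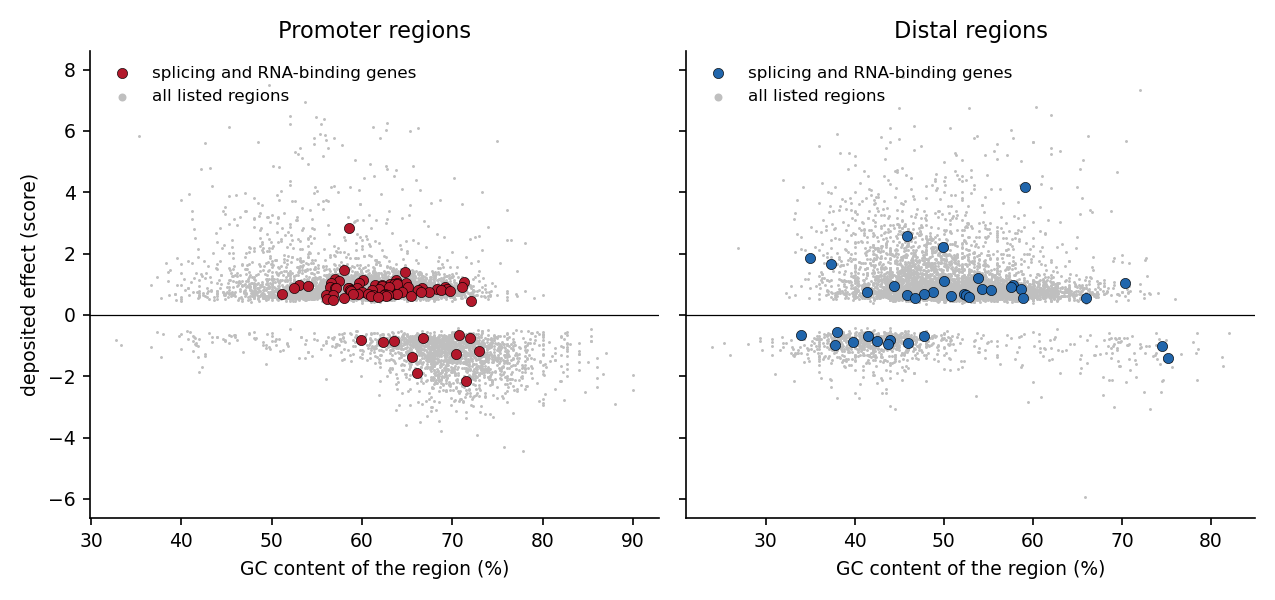
Deposited effect (score, y axis) against GC content of the region (percent, x axis) in promoter regions (left, red) and distal regions (right, blue) given to splicing and RNA-binding genes, over all listed regions in grey. Negative promoters sit at the GC-rich side (8 of 11 at 65% or more), and 10 of the 12 negative distal regions sit under 50% GC.

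Repeat content also went with direction outside promoters. Soft-masked sequence covered over 50% of 12 of the 37 distal regions (32.4%), against 11.3% of all distal regions, and all 12 were positive, against 96.0% of 808 in the table. The other 25 distal regions were positive in 13 cases (52.0%), against 85.8% in the table. Multi-copy regions, with at least 2 near-identical copies in the genome, numbered 2 of 113 (1.77%), against 5.82%. These 2 (near Celf2 and at Rbm12b1) had the highest effects of all 113, and how reads of such copies were placed is not stated in the labels.

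SR proteins bind exonic enhancers through RNA recognition motifs and recruit the early spliceosome, and 9 of their 13 genes had a region, 11 of 12 regions positive (median 0.796). For this and the families below, the table's positive shares were 80.7% of all listed regions, 75.1% of promoter and 86.9% of distal regions. No family was tested against them. The Srsf7 promoter (chr17:80206376-80207750) had the highest effect of the family at 1.41 (adjusted p 2.49e-08). Promoter effects were 1.03 for Tra2b (adjusted p 3.89e-06), 1.00 for Srsf5 (1.33e-05) and 0.972 for Srsf1 (3.48e-05). Those for Srsf2, Tra2a and Srsf3 were 0.838, 0.729 and 0.645 (adjusted p at most 0.000775). Every SR promoter with a listed region except that of Srsf9 was positive. Srsf9 had -0.843 (adjusted p 0.00198), although its 63.6% GC lay within the range of the positive SR promoters.

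All 3 distal SR regions were positive, beside 86.9% of all listed distal regions, and their interval reached down to 43.9%. A region 5370.5 bp upstream of Tra2a, shown above, had an effect of 1.11 (adjusted p 7.09e-06), above the 0.729 of its promoter. A 75 bp region 26619 bp downstream of the Srsf7 start, in an intron of the neighbouring Galm, had 0.755 (adjusted p 0.000107). A region in a non-coding exon of Gm26545, 59666 bp upstream of Srsf5, had 0.684. Srsf4, Srsf10, Srsf11 and Srsf12 were the nearest gene of no listed region.

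hnRNP proteins coat nascent transcripts and often act as splicing repressors, and they formed the family with most regions. Of 20 genes, 17 had a region, and 22 of 30 regions were positive (median 0.664). Promoters were positive in 15 of 16, from 0.455 at Hnrnpk (adjusted p 0.00775) to 1.12 at Hnrnpl (4.16e-07), and Hnrnpa2b1 had 0.837. Distal regions were split evenly, with 7 positive and 7 negative. The exception among promoters was Hnrnpa0 (chr13:58128051-58129550, 71.5% GC), an intronless gene, whose effect of -2.16 (adjusted p 4.70e-09) was the lowest of all 113 regions. It ranked 180 from the bottom of the 14973 listed regions.

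The distal hnRNP regions ran from -0.968 to 2.57. Hnrnpll had a single listed region, 50 bp wide and 30341.5 bp upstream (chr17:80092651-80092700), at -0.910 (adjusted p 0.00504). A region 35764.5 bp downstream of the Hnrnph2 start had -0.968, and another upstream of Hnrnpm, in an intron of March2, had -0.949, while the promoter of Hnrnpm had 1.04. Hnrnpu, whose protein binds chromatin and RNA, had 0.795 at a region 31353.5 bp upstream. No listed region was given to Hnrnpa1, Hnrnpab or Hnrnpd.

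At least 3 regions each were given to 6 genes, of the hnRNP, RBM and CELF families, and their patterns differed. All 5 regions of Hnrnpf were positive, at 0.911, 0.695 and 0.624 near 3 separate annotated starts and at 0.561 and 0.543 upstream of them, so that its annotated alternative promoters had 1 sign. Hnrnpc had 0.633 at its promoter. It had -0.681, -0.650 and -0.544 at 3 regions centred in introns 5018.5 to 5306 bp downstream, with 50 bp and 25 bp between them. The region at -0.681 also overlapped an annotated UTR. Hnrnpa3 had 0.761 at its promoter, 2.57 at 21073 bp upstream (78.5% masked, adjusted p 1.35e-11), 0.607 at 74173 bp upstream and -0.820 at 10657.5 bp downstream. Rbm47 had 0.883 at an internal start, 1.21 in a non-coding exon of Gm43775 and -0.686 upstream. Of 19 splicing genes with at least 2 regions, 7 held both signs (36.8%), against 30.4% of 2974 genes in the table. In 11 of the 19 all regions were positive, and in Rbm33 alone all were negative, at -1.27 in its promoter and -0.875 at 1339 bp upstream.

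**Figure D3:**
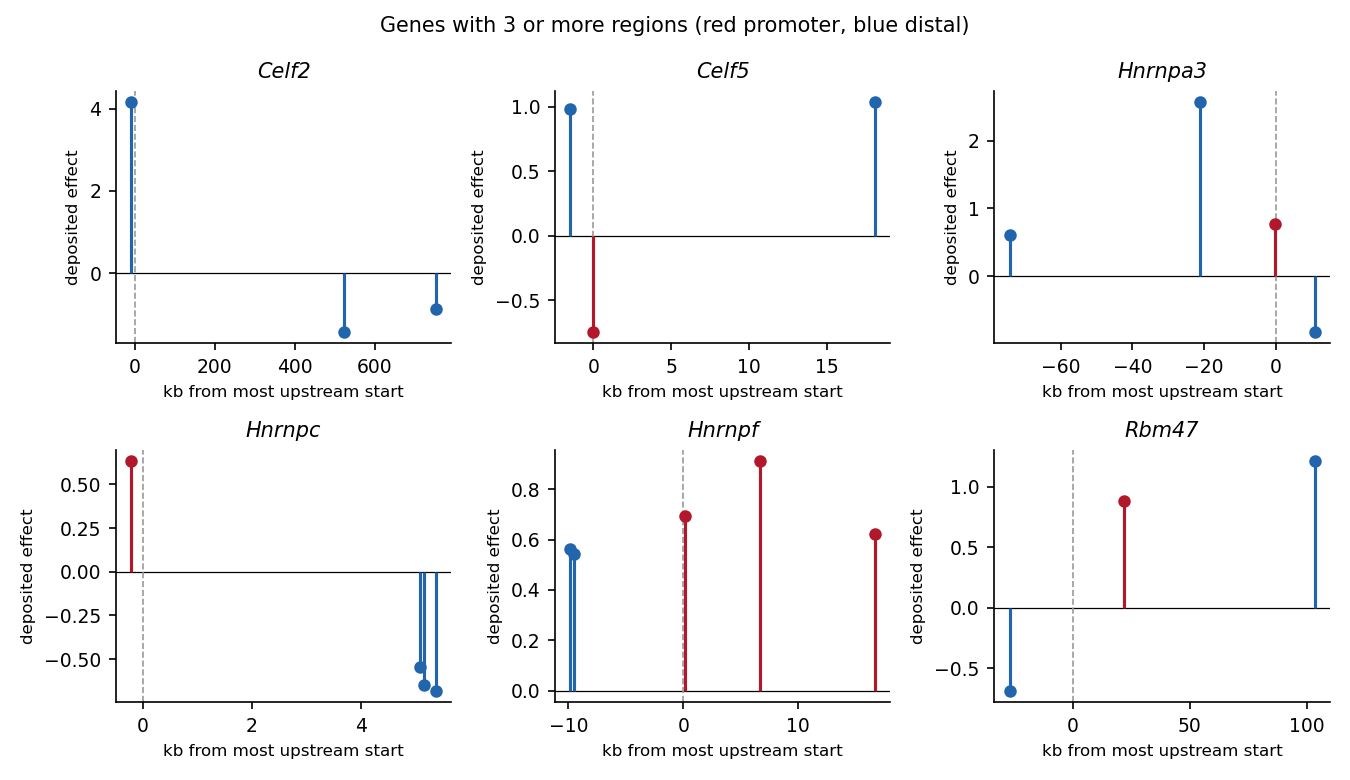
Deposited effect (score, y axis) of each region against its distance in kb from the gene's most upstream protein-coding start (x axis, dashed line at the start, downstream to the right) for the 6 genes with at least 3 regions, with promoter regions in red and distal regions in blue. All 5 Hnrnpf regions are positive, and the 3 Hnrnpc regions centred in introns are negative at -0.681 to -0.544 beside a positive promoter at 0.633.

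The U2 snRNP recognises the branch point. The 5 listed regions of its SF3 genes and the 2 of the U2AF genes were positive, beside 80.7% over all listed regions. Their intervals reached down to 56.6% and 34.2%, so these families were not separated from the table. The SF3 regions ran from 0.676 at the Sf3b2 promoter to 1.03 at that of Sf3a1, with a median of 0.802. Sf3b1, the branch point binding subunit that is mutated in myelodysplastic syndromes, had 0.679 at a region 1657 bp upstream (adjusted p 0.000552) and no listed promoter region. Sf3b5 had 0.893 at a region centred in its UTR. The promoter region given to U2af2, for the large subunit that binds the polypyrimidine tract, had 1.12 (adjusted p 3.96e-06). Its centre lay 511 bp from a start of Gm45133 and 605 bp from that of U2af2. The promoter of the related U2af1l4 had 0.893. U2af1, the small subunit that reads the AG at the intron's end, had no listed region.

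The snRNP genes (symbols in Snrp), for core and other particle proteins, had moderate effects. Of 12 genes, 9 had a region each, and 8 of 9 were positive with a median of 0.642 and a highest value of 0.898 at Snrpe. Snrpd1, an Sm ring protein, was the exception at -0.806 (adjusted p 0.00221), while the promoter of Snrpd3, of the same ring, had 0.679. Snrpd2, also of that ring, had 0.552 at a distal region 7878.5 bp downstream of its start, in an intron of Gipr. LSm regions were positive in 10 of 12 (median 0.783). The highest were 2 fully masked regions 45113.5 and 45513.5 bp downstream of the Lsm6 start, in an intron of Gm47209, at 1.85 and 1.65. Lsm14b, whose protein is known for storing mRNA in the cytoplasm, had the lowest at -1.18 (adjusted p 2.96e-05).

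PRPF genes encode mostly tri-snRNP and U1-associated proteins, and 8 of their 9 regions were positive, with a family median of 0.673. Prpf8, the large protein at the catalytic centre, had 0.731 at its promoter (adjusted p 0.000233). The lowest was the Prpf40b promoter (chr15:99294476-99295400) at -1.88 (adjusted p 9.50e-09), with 66.1% GC.

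RBM genes are a naming group of RNA recognition motif proteins with unlike functions. Their regions were mostly positive at promoters (16 of 19) and divided outside them (4 positive, 3 negative). The promoter region given to Rbm19, at 0.885, lay at a start of Gm10390, 22923 bp downstream of the Rbm19 start. Of 39 genes, 22 had a region, and 20 of 26 regions were positive (median 0.887). Promoters of Rbm12b1 and Rbm5, the latter a regulator of apoptotic splicing, had 2.82 (adjusted p 2.40e-08, 2 copies in the genome) and 1.47 (5.48e-09). Those of Rbm15, which guides m6A methylation of RNA, Rbm39, a U2AF-related factor, and the cold-induced Rbm3 had 1.18, 1.00 and 0.874. An intronic region of Rbm19 that was 57.0% masked had 2.20 (adjusted p 4.44e-13). The negative ones included promoters of Rbm24 at -1.39, a splicing factor of muscle, and of Rbm26 at -0.876. Rbm15b had -1.02 (adjusted p 4.29e-05), at the only distal region centred in a coding exon (chr9:106886151-106886475, 74.5% GC).

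CELF proteins bind GU-rich RNA and include brain and muscle regulators, and their regions were split, with 4 positive and 4 negative. Both promoters were negative, Celf1 at -0.766 (adjusted p 0.00285) and Celf5 at -0.742 (0.00164). Celf5 also had 0.985 at 1479 bp upstream and 1.04 in an intron. Celf2, a gene spanning several starts, had 4.16 at a fully masked region with 5 copies in the genome (chr2:7405201-7405425, adjusted p 2.52e-05). Single-copy intronic regions of Celf2 had -1.42 (75.1% GC) and -0.864. The 4.16 ranked 142 of all listed regions, and without it the highest single-copy value was the 2.57 near Hnrnpa3.

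**Figure D4:**
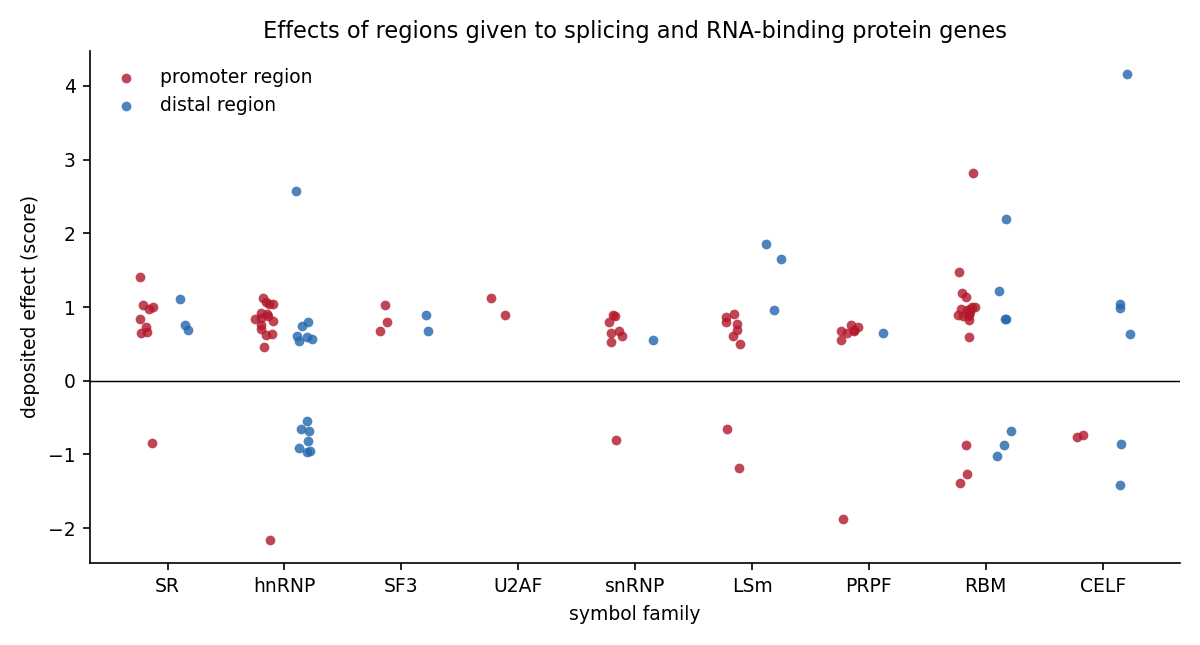
Deposited effect (score, y axis) of each of the 113 regions by symbol family (x axis), with promoter regions in red and distal regions in blue, spread sideways for clarity. hnRNP promoters are positive in 15 of 16 while hnRNP distal regions split 7 to 7, and both CELF promoters are negative.

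Regions on both sides of the start were mostly positive. Of 74 regions within 1000 bp of a protein-coding start, 40 had their centre upstream and 34 downstream. Upstream, 32 were positive (80.0%, against 75.7% of all such regions), and downstream 31 were (91.2%, against 72.1%). Divergent promoters, with a protein-coding start on the opposite strand, made up 13 of the 74 (17.6%), against 8.62% of all. All 13 were positive, against 90.6% of 616 in the table, and 50 of the other 61 (82.0%), against 72.0%. These pairs, named after their values were seen, include Srsf7 with Ttc39d, Hnrnpdl with Enoph1, Srsf2 with Mfsd11, Hnrnpa2b1 with Cbx3 and Hnrnpk with Rmi1.

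Several consensus sequences of ubiquitous promoter factors were in a larger share of splicing promoters than of all listed promoters. ETS (CCGGAAG) was in 32 of 76 (42.1%), against 26.9% of 7849, and NFY (CCAATNA) also in 32 (42.1%), against 26.7%. YY1 (AAGATGG) was in 23 (30.3%), against 15.4%. Splicing promoters were wider (median 950 bp, against 800 bp), and the rates per kb were 0.601 against 0.453 for ETS, 0.796 against 0.476 for NFY and 0.377 against 0.222 for YY1. For ETS the shares were alike in transcription machinery promoters (43.9%) and other splicing promoters (44.9%), and for YY1 in translation promoters (29.6%). NFY was in 31.8% of transcription machinery, 25.9% of translation and 24.5% of other splicing promoters. SP/KLF boxes (GGGCGG) were in 67 (88.2%), against 80.2%, and in all 11 negative promoters, but their rate per kb was lower (3.72 against 4.00), and so was their share in the central 200 bp (44.7% against 52.4%). AP-1 (TGANTCA), the site of factors induced on T cell activation, was in 7 (9.21%), against 12.5%. None of these differences was tested.

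The consensus with the largest ratio to the table's share among the 15 was TCTCGCGA, a CGCG element known from housekeeping promoters and listed here under ZBTB33, to which BANP is also known to bind. It was in 9 of 76 splicing promoters (11.8%), against 3.02% of all listed promoters, 3.03% of transcription machinery promoters, 5.56% of translation promoters and 6.12% of other splicing promoters. Per kb the rate was 0.237, against 0.057. The 17 matches came from 12 sites, since 5 sites were read on both strands, and 8 of the 12 lay within 250 bp of the start. Effects of the 9 promoters were 1.18 (Rbm15), 1.00 (Srsf5), 1.00 (Rbm39), 0.883 (Hnrnph3), 0.802 (Sf3a2), 0.793 (Snrpg), 0.455 (Hnrnpk), -0.651 (Lsm14a) and -0.876 (Rbm26). Promoters with and without the consensus had nearly equal median effects, 0.802 and 0.797. The site nearest to the start is shown for each of the 9, with the consensus in capitals, as the feature whose share in splicing promoters was furthest, by ratio, from that in the table.
Rbm15, chr3:107333704-107333733, minus strand: cactgtcaccaTCTCGCGAcagcaaagtga
Srsf5, chr12:80946144-80946173, minus strand: acaagccggaaTCTCGCGAcgccaccaccg
Rbm39, chr2:156180222-156180251, plus strand: caagcacgggcTCTCGCGAgaaactgcccc
Hnrnph3, chr10:63023962-63023991, plus strand: tgccgcgctgcTCTCGCGAtacttgagtga
Sf3a2, chr10:80798884-80798913, plus strand: ggagagcgcgcTCTCGCGAggcccgttggg
Snrpg, chr6:86371430-86371459, minus strand: attacctttcaTCTCGCGAtattgatgggg
Hnrnpk, chr13:58402535-58402564, plus strand: agtgacagaccTCTCGCGAgacttcagcgg
Lsm14a, chr7:34389720-34389749, plus strand: gcggcgtgcttTCTCGCGAgactcgccgag
Rbm26, chr14:105177301-105177330, plus strand: ctgccggtaaaTCTCGCGAgaatgagtgcg

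**Figure D5:**
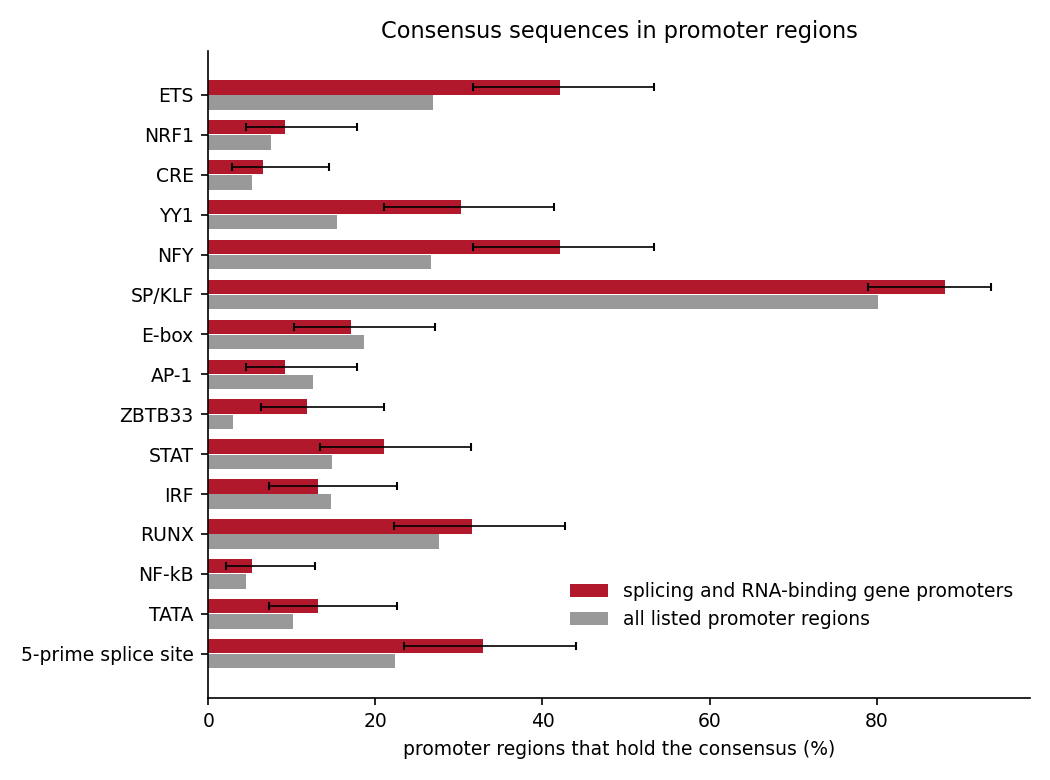
Percent of promoter regions that hold each of 15 consensus sequences on either strand (x axis). Red bars are the 76 promoter regions given to splicing and RNA-binding genes, with 95% Wilson intervals, and grey bars all 7849 listed promoter regions. TCTCGCGA (ZBTB33) is in 11.8% against 3.02%, and ETS in 42.1% against 26.9%.

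For the remaining consensus sequences the shares were as follows, and none was tested. NRF1 (GCGCATGC) was in 7 promoters (9.21%, against 7.47%), CRE (TGACGTCA) in 5 (6.58%, against 5.24%) and the E-box (CACGTG) in 13 (17.1%, against 18.6%). STAT (TTCNNNGAA) was in 16 (21.1%, against 14.8%), RUNX (TGTGGT) in 24 (31.6%, against 27.7%), IRF (GAAANNGAA) in 10 (13.2%, against 14.7%), NF-kB (GGGANTTCC) in 4 (5.26%, against 4.52%) and the TATA box (TATAAA) in 10 (13.2%, against 10.2%). The 5' splice site letters GGTAAG were in 25 (32.9%, against 22.3%), the largest difference in percentage points of this group. A match of letters is a description and does not show that a factor was bound.

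The distance limit left out few regions. The farthest members lay 78250 bp (Celf2) and 74173 bp (Hnrnpa3) from a start. Beyond 100 kb, Celf4 was the nearest gene of 3 regions 205164 bp, 248326 bp and 266552 bp away with effects of 0.886, 0.674 and -2.62.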

How the data were processed

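The values came from 1 table of regions that, per the file headers, the authors derived from the mm10 alignments of both output libraries together. Which aligner, caller, statistical test and normalization they used was not given in the sources used here. The deposited table holds for each region a signed effect (a score of unstated scale and direction) with its p-value and the adjusted p. These are the authors' own and serve only to describe regions within the table. The table's starts count from 1, since the deposited width equals end minus start plus 1. No per-library value or depth was used here, so no replicate error could be given.

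Annotation was GENCODE M21, and sequence was the RefSeq copy of GRCm38, the same build as mm10. Python 3.11.15, pandas 2.3.3, pysam 0.24.0 and samtools 1.23.1 were used. Each region went to the gene whose protein-coding start was nearest its centre, up to 100 kb. Copies of the 300 bp around each centre were matches of at least 95% identity over at least 240 bp, found with minimap2 2.31. On other scaffolds lay 21 regions, not used here. The 15 consensus sequences were searched on both strands. The assignment and the count of tested regions were tested on simulated data.

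The gene set, families, lists and compared groups were chosen with earlier results of these data known. No test was made over regions: they are described by counts and medians beside all listed regions. Regions named are the 10 highest and 10 lowest, the highest and lowest of each family, all regions of 20 preset genes, distal exonic regions and genes with at least 3 regions. A preset gene with no listed region is named as such, and a further gene that the rule names is not reported here. Other regions, among them those holding TCTCGCGA, the divergent pairs and the printed sequences, were chosen after their values were seen. Alternatives were gene distances of 50 and 20 kb, 1 start per gene, an adjusted p under 0.001, an absolute effect of at least 1, single-copy regions, merging within 500 bp, 1 region per gene, promoter windows of 500 and 2000 bp, and the central 200 bp for consensus sequences.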

Additional observations from a re-analysis of the deposited data

How the results depend on the processing

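Of 52 values of 6 results under the alternatives, 43 stayed within 1.5 times the main count or within the interval of the main share or median. At a deposited adjusted p under 0.001, 69 regions were left, with 89.9% positive (promoters 92.0%, distal 84.2%) and a median of 0.893; all listed regions then had 80.3%, 72.6%, 91.8% and 0.849. With an absolute effect of at least 1, 30 regions of 28 genes were left, promoters were 75% positive (53.9% over all listed regions), distal regions 80.0% (82.3%), which turns the order of the 2 locations, and the median was 1.05. The median effect was positive under each of these alternatives, as was that over all listed regions, 80.7% of which were positive in the main setting. In the central 200 bp of each promoter region, all 15 consensus shares were lower, with less sequence searched, 14 of them outside the interval of the main share: ETS was in 19.7% against 10.8% of all listed promoters, YY1 in 10.5% against 5.10%, NFY in 15.8% against 10.8% and TCTCGCGA in 3.95% (3 promoters) against 0.99%. The side of the table's share turned there for SP/KLF (44.7% against 52.4%), NRF1 (1.32% against 2.59%), CRE (1.32% against 2.08%), STAT (3.95% against 4.00%), IRF (3.95% against 3.73%) and the TATA box (0% against 2.32%). Leaving out a library could not be done because both were combined into 1 value, and with no input level or depth, only the deposited p-value speaks to the precision of an effect.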
